A study of Schizosaccharomyces pombe with 6 samples.

Results

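The 50 genes described here act in DNA repair and in the checkpoints that halt the cell cycle when DNA is damaged or incompletely copied, and their transcripts were measured in *rae1-167* cells of the fission yeast *S. pombe* at 36°C and at 25°C. A gene was taken where the platform annotation names it, by symbol, as the only *S. pombe* gene of a probe set. This held for 49 of the 50 genes, out of 2918 named features on the arrays, and each of the 49 had 1 probe set. All cells, at both temperatures, carried the *rae1-167* allele in the 972 background. Rae1 is an essential factor that brings mRNA to the nuclear pore for export, and *rae1-167* is a temperature-sensitive allele whose function is lost at 36°C. Early-log cells in YE4S, a rich medium, were kept for 1 h at 36°C (3 arrays) or at 25°C (3 arrays), and total RNA of whole cells was hybridised to Affymetrix GeneChip yeast arrays. No wild type array was analysed here, so an effect of the temperature itself and an effect of losing Rae1 function cannot be told apart. In such bulk RNA, fewer cells holding a transcript and less transcript per cell cannot be told apart either.

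Cells detect damaged DNA through a conserved kinase cascade. A ring-shaped clamp of Rad9, Rad1 and Hus1 is loaded at the lesion by Rad17, the sensor kinase Rad3 binds there with its partner Rad26, and mediators such as Crb2 pass the signal to the effector kinases Chk1 and Cds1, which hold back mitosis. Broken ends are then resected and repaired by recombination with a sister chromatid, or joined directly after binding by the Ku proteins. Bulky lesions are cut out by nucleotide excision repair, and replication errors are removed by mismatch repair. The Smc5/6 complex, a relative of cohesin and condensin, is needed for recombination to be completed.

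Signal intensities are linear values on the authors' global scaling, and a log2 fold change is the mean log2 signal at 36°C minus that at 25°C. For replicates 1, 2 and 3, the median signal over named features was 1146, 1401 and 1582 at 36°C, against 1940.0, 2436 and 2619 at 25°C. The median log2 fold change of all features was -0.66, whereas the hybridisation spike-in controls differed by only 0.01. Centring each array on its median turned the median over features to 0.10, and quantile normalization turned it to -0.02, so directions below are those of the deposited scaling unless another of these 3 scalings is named. Log2 signals correlated at 0.970 to 0.997 among the 36°C arrays, at 0.987 to 0.997 among the 25°C arrays and at 0.770 to 0.798 across temperatures. Of 7 control genes with probe sets at both ends of the transcript, 3 had a lower 5′ to 3′ ratio on every 36°C array (*SRB4* had the largest log2 difference, -1.43), and the part of this in the values below was not tested. *rae1* itself had signals of 1634, 1497 and 1530.3 at 36°C, against 4299, 4477 and 4717 at 25°C (log2 fold change -1.53, SE 0.10, limma adjusted p = 5.66e-05).

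With the deposited scaling most of the repair and checkpoint transcripts were lower at 36°C, but with quantile normalization genes called higher and lower were nearly equal in number (18 and 19). With the deposited scaling, 29 of the 49 measured genes fell at a limma adjusted p under 0.05 (59.2%, against 51.9% of all features), 5 rose (10.2%, against 12.1% of all features) and 15 missed the threshold. The shares of genes called lower or higher were thus near those of the arrays as a whole. Their median log2 fold change was -0.92, beside -0.66 over all features, and it was -0.94, -1.10 and -0.91 in replicates 1, 2 and 3. The signals on all 3 arrays at 36°C lay below all 3 at 25°C for 31 genes (56.4% of all features did so) and above them for 5 genes (15.0% of all features), and they overlapped for 13. Among the genes that fell, the decrease was at least 2-fold for 23 (46.9%, against 39.9% of all features) and at least 4-fold for 12 (24.5%, against 18.1%). It was at least 8-fold for 6 of the 49 genes, a larger share than the 166 of 2918 features (5.69%). In the other direction *rhp42* was the only gene above 2-fold. All 49 genes were above background on all 6 arrays, background being the signal that 90% of *S. cerevisiae* probe sets on the same array stay under. The standard deviation over 3 arrays was 17.6% of the mean at 36°C and 15.9% at 25°C for the median gene. Replicate 1, whose labels have another form than those of replicates 2 and 3, had the opposite sign to both of them for 6 genes (*cds1*, *rhp57*, *nse2*, *nse4*, *rhp41* and *pku80*). With replicates 2 and 3 only, 37 of the 49 genes fell and 5 rose, with a median of -1.02. Of all 2918 features 1755 fell and 484 rose in that fit, with a median of -0.64. Whether replicate 1 was a separate batch was not tested.

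**Figure D1:**
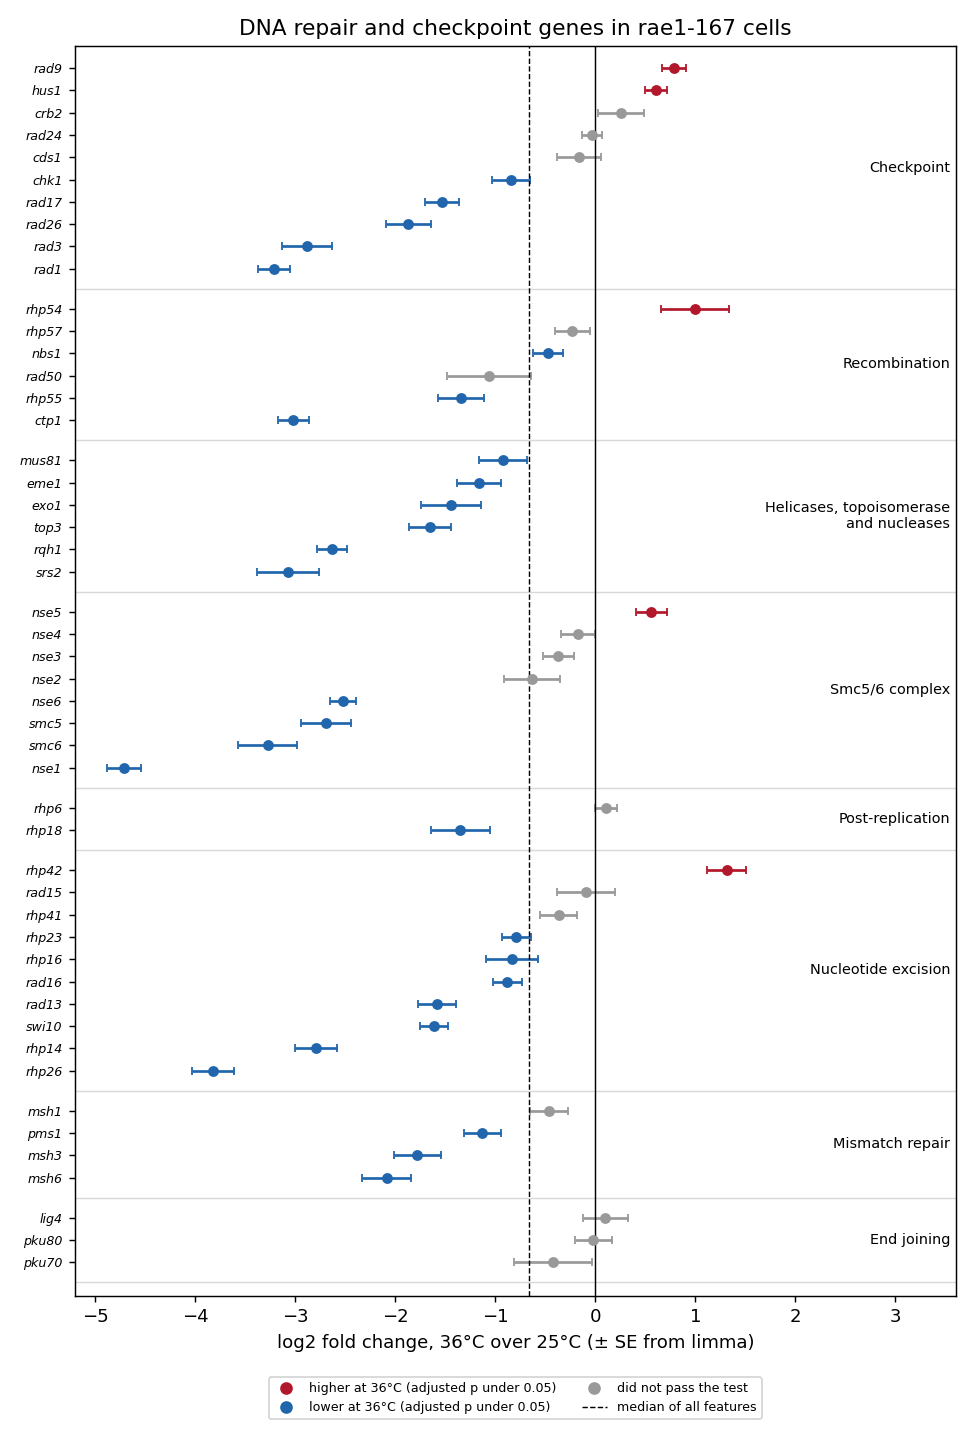
Log2 fold change, 36°C over 25°C, of the 49 measured genes, grouped by role, with the standard error from limma as bars. Red points rose, blue points fell and grey points did not pass the test, and the dashed line is the median of all features at -0.66. *nse1* at -4.71 and *rhp42* at 1.32 are the ends of the range.

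In the checkpoint group, 5 of 10 genes fell and 2 rose (51.9% and 12.1% of all features did), while 3 missed the threshold. The median was -0.50. Centred arrays and quantile normalization each gave 4 lower and 4 higher, with medians of 0.26 and 0.02. Of all features 34.5% fell and 39.4% rose with centred arrays, and 33.9% and 30.3% with quantile normalization. The subunits of the clamp went in opposite directions. *rad1* (SPAC1952.07) had signals of 155, 129.8 and 142 at 36°C, against 1123, 1278 and 1582 at 25°C. The groups lie far apart, and the log2 fold change was -3.21 (SE 0.16, limma adjusted p = 2.57e-05), a 9.27-fold decrease. *hus1* (SPAC20G4.04c) had 936, 877 and 1029.6 at 36°C, against 635, 588 and 641 at 25°C (log2 fold change 0.61, SE 0.11, limma adjusted p = 0.00375). *rad9* (SPAC664.07c) had 939, 881 and 857 at 36°C, against 461, 549 and 547 at 25°C (log2 fold change 0.79, SE 0.12, limma adjusted p = 0.00154). For both of these subunits every 36°C array was above every 25°C array, the fold change between means was 1.52 for *hus1* and 1.72 for *rad9*, and both rose under all 3 scalings, as *rad1* fell under all 3.

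*rad17*, the loader of this clamp, fell by 1.53 on the log2 scale (SE 0.17) with the deposited scaling and by 0.77 with centred arrays, but with quantile normalization its change was 0.03 and did not pass the test. *rad3* (SPBC216.05), the ATR-family kinase at the head of the cascade, had signals of 84.8, 125 and 122 at 36°C, against 596, 915 and 953 at 25°C. Its highest 36°C array lay well under its lowest 25°C array (log2 fold change -2.88, SE 0.25, limma adjusted p = 0.000134). *rad26* (SPAC9E9.08), the partner of Rad3, had 257, 318 and 332 at 36°C, against 806, 1286 and 1272 at 25°C (log2 fold change -1.87, SE 0.22, limma adjusted p = 0.000531). The kinase and its partner fell under all 3 scalings. The effectors and the listed mediator, *crb2*, had smaller changes. *mrc1*, the mediator of the replication checkpoint, is counted below among the other repair genes. It fell by 3.63 (SE 0.30) and was lower under all 3 scalings. *chk1* fell by 0.84 on the log2 scale (SE 0.19), although not with centred arrays, while *cds1* was at -0.16 (SE 0.22) and *crb2* at 0.26 (SE 0.23), and neither passed the test, although *crb2* was called higher with centred arrays (1.02) and with quantile normalization (0.94), and *cds1* with quantile normalization (0.70). For *cds1* replicate 1 had the higher signal at 36°C (log2 ratio 0.52) and replicates 2 and 3 the lower (-0.53 and -0.48). *rad24* (SPAC8E11.02c), a 14-3-3 protein that binds checkpoint targets, had 12442, 13473 and 13152 at 36°C, against 13020.1, 13489.9 and 13452 at 25°C. These groups overlap and the change was -0.03 (SE 0.10, limma adjusted p = 0.801), the smallest of the group, though with centred arrays it was called higher (0.73). *rad24* was also the only member with a signal above 10000 on any array, as 400 of the features had.

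**Figure D2:**
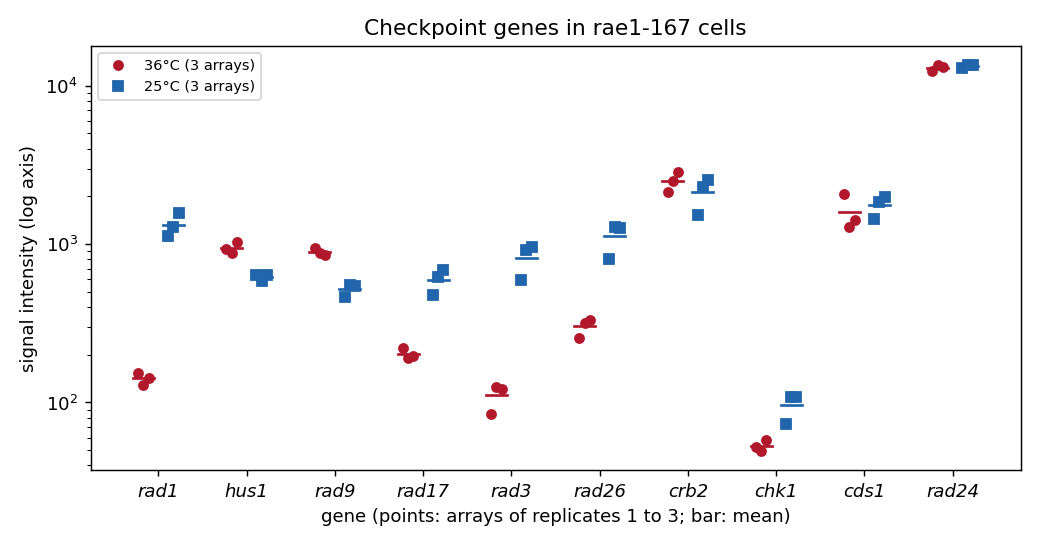
Signal intensity (log axis) of the 10 checkpoint genes on each array, with 36°C as red circles, 25°C as blue squares and a bar at the mean of 3 arrays. *rad1*, *rad3*, *rad26*, *rad17* and *chk1* show red points wholly below blue, *hus1* and *rad9* the reverse, and *crb2*, *cds1* and *rad24* overlap.

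Among the recombination genes, 3 of 6 fell and 1 rose (51.9% and 12.1% of all features did), while 2 missed the threshold. Their median of -0.77 became -0.01 with centred arrays and 0.37 with quantile normalization. *ctp1* (SPCC338.08) encodes a cofactor of the MRN complex, which starts the resection of broken ends. Its signals were 142, 159 and 145 at 36°C, against 993, 1234 and 1417 at 25°C. The decrease was 8.10-fold and held under all 3 scalings (log2 fold change -3.02, SE 0.16, limma adjusted p = 2.85e-05). The listed subunits of MRN, *nbs1* and *rad50*, had smaller changes. *rad32*, the other MRN subunit, belongs to the other repair genes counted below and fell by 2.06 (SE 0.22, limma adjusted p = 0.00033). It was also lower with centred arrays (-1.30) but had no call with quantile normalization (-0.74). *nbs1* had a log2 fold change of -0.47 (SE 0.15, limma adjusted p = 0.0345), a call that held in 2 of the 6 fits that each left out 1 array (those without replicate 1 at 25°C or at 36°C), but it had no call with centred arrays (0.29) and was called higher with quantile normalization (1.03). With the replicate number as a block *nbs1* stayed lower (limma adjusted p = 0.044). The change of *rad50* was -1.06 (SE 0.42, limma adjusted p = 0.0678). *rad50* passed with the replicate number as a block (limma adjusted p = 0.00182), without replicate 1 at 25°C (0.0496) and without replicate 3 at 36°C (0.033).

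The accessory genes of recombination gave values on both sides of zero. *rhp55* (SPAC3C7.03c, now *rad55*), which encodes an accessory protein of strand exchange, had 79.6, 131 and 128 at 36°C, against 246, 279 and 316 at 25°C (log2 fold change -1.34, SE 0.23, limma adjusted p = 0.00243), but with quantile normalization its change was -0.05. Its partner *rhp57* (SPAC20H4.07, now *rad57*) had 2304, 1521 and 1827 at 36°C, against 2017, 2246 and 2280.2 at 25°C. Here the groups overlap and the change was -0.23 (SE 0.17, limma adjusted p = 0.292), while without replicate 1 at 36°C it passed at -0.39 (limma adjusted p = 0.0445). *rhp54* (SPAC15A10.03c, now *rad54*), a DNA translocase of recombination, had 736, 1191 and 1563 at 36°C, against 395, 614 and 708 at 25°C. Each replicate had the higher signal at 36°C, and every 36°C array was above every 25°C array (log2 fold change 1.00, SE 0.34, limma adjusted p = 0.0416). The arrays of *rhp54* spread widely within a temperature, and its call held in 1 of the 6 fits that each left out 1 array, without replicate 1 at 36°C, while the other fits gave adjusted p-values up to 0.115 in limma. With the replicate number as a block the call of *rhp54* held (limma adjusted p = 0.000608). The log2 ratios of replicates 1, 2 and 3 were 0.90, 0.96 and 1.14. The increase was 1.76 with centred arrays and 2.22 with quantile normalization.

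All 6 genes for enzymes that unwind or cut joined DNA fell with the deposited scaling, as 51.9% of all features did, with a median of -1.55. Centred arrays left 5 lower (34.5% of all features were) with a median of -0.78. Quantile normalization left 3 lower (33.9% of all features) with a median of -0.68 and turned *mus81* higher. *srs2* (SPAC4H3.05), a DNA helicase that limits recombination, had signals of 49.9, 86.7 and 108 at 36°C, against 527, 707 and 738 at 25°C. The 8.39-fold decrease was -3.07 (SE 0.31, limma adjusted p = 0.000261) on the log2 scale. *rqh1* (SPAC2G11.12) is the RecQ helicase of fission yeast. It had 299.8, 225 and 252 at 36°C, against 1552, 1469.6 and 1758 at 25°C (log2 fold change -2.63, SE 0.15, limma adjusted p = 3.42e-05). *top3* (SPBC16G5.12c), the topoisomerase that works with Rqh1, was a dim probe set with 24.1, 27.3 and 24.8 at 36°C, against 57.9, 92.2 and 94.8 at 25°C, still apart between the temperatures (log2 fold change -1.65, SE 0.21, limma adjusted p = 0.000742). With 32 added to every signal its change was -0.97. *srs2*, *rqh1* and *top3* were lower under all 3 scalings.

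The nucleases of the group had smaller changes. *mus81* (SPCC4G3.05c), the structure-specific nuclease that cuts recombination intermediates, had 400.1, 592 and 723 at 36°C, against 907, 1092 and 1169 at 25°C (log2 fold change -0.92, SE 0.24, limma adjusted p = 0.0153). This call was lost without replicate 2 or replicate 3 at 25°C (adjusted p of 0.0517 and 0.0586 in limma), and quantile normalization gave 0.40 in place of a decrease. With the replicate block *mus81* stayed lower (limma adjusted p = 0.002). *eme1*, its partner, fell by 1.17 on the log2 scale (SE 0.22), and *exo1*, a resection exonuclease, fell by 1.44 (SE 0.30). Neither passed the test with quantile normalization, at 0.34 and -0.02.

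The Smc5/6 complex held the gene with the largest decrease of all 49. Of its 8 genes 4 fell and 1 rose, while 3 missed the threshold, and these counts were the same under all 3 scalings. Of all features 51.9% fell and 12.1% rose as deposited, 34.5% and 39.4% with centred arrays, and 33.9% and 30.3% with quantile normalization. The median of the 8 genes was -1.57 as deposited, -0.81 with centred arrays and -0.54 with quantile normalization. *nse1* (SPCC550.05), the RING-domain subunit, had signals of 55.0, 38.5 and 46.8 at 36°C, against 1199.5, 1096 and 1361 at 25°C. Its 36°C arrays were 26.2-fold lower (log2 fold change -4.71, SE 0.17, limma adjusted p = 1.81e-05), and among all 2918 features, counted from the most negative log2 fold change, *nse1* ranked 5. With 32 added to every signal its log2 fold change was -3.99. *smc6* (SPCC5E4.06), an SMC ATPase, had 56.8, 91.1 and 105 at 36°C, against 589.5, 860.2 and 969.5 at 25°C (log2 fold change -3.28, SE 0.29, limma adjusted p = 0.000159). *smc5* (SPAC14C4.02c), the other ATPase, had 159.7, 213 and 265 at 36°C, against 1038, 1470.2 and 1595 at 25°C (log2 fold change -2.69, SE 0.25, limma adjusted p = 0.000177). *nse6* fell by 2.52 on the log2 scale (SE 0.13).

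The other subunits had smaller changes. *nse5* (SPBC651.10), which pairs with Nse6, had 3118, 3608 and 4079 at 36°C, against 2127, 2539.8 and 2646 at 25°C. Every 36°C array was above every 25°C array, the rise was 1.48-fold (log2 fold change 0.56, SE 0.15, limma adjusted p = 0.0176), and this call was lost without replicate 2 or replicate 3 at 36°C. With the replicate block *nse5* stayed higher (limma adjusted p = 0.00314). *nse4* (SPBC20F10.04c), the kleisin subunit, had 2179.7, 1433 and 1751 at 36°C, against 2042, 1932 and 1984 at 25°C. Its groups overlap and the change was -0.17 (SE 0.17, limma adjusted p = 0.416). *nse2*, the SUMO ligase, was at -0.63 (SE 0.28) and *nse3*, a MAGE-family protein, at -0.37 (SE 0.16), and neither passed the test, although without replicate 1 at 36°C both were called lower, at -0.94 and -0.51. Subunits that are assembled into the same particle thus ranged from -4.71 to 0.56 in log2 fold change.

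**Figure D3:**
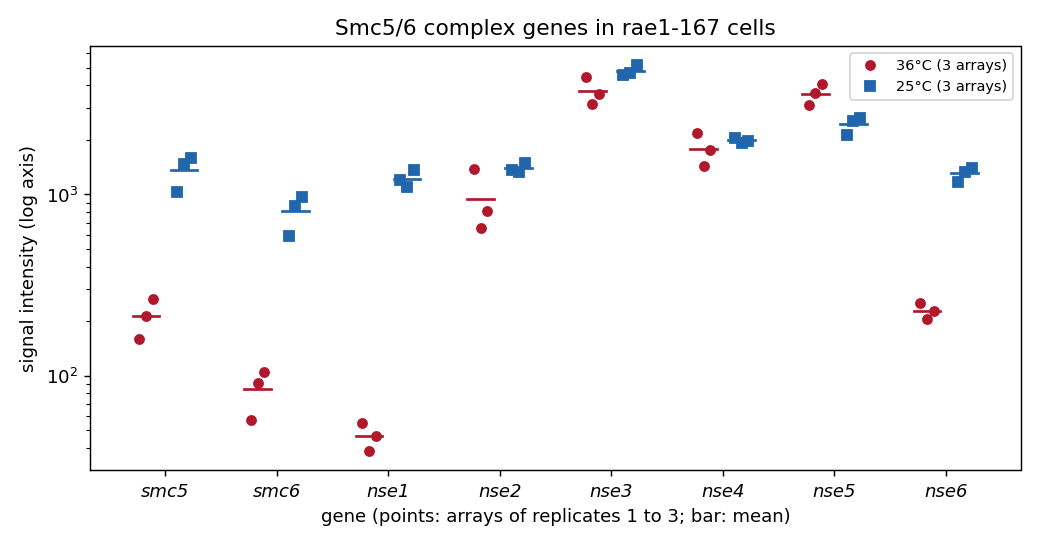
Signal intensity (log axis) of the 8 genes of the Smc5/6 complex on each array, with 36°C as red circles, 25°C as blue squares and a bar at the mean of 3 arrays. *smc5*, *smc6*, *nse1* and *nse6* lie far below their 25°C arrays, *nse5* lies above, and the others are close or overlap.

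Post-replication repair was represented by 2 genes whose products act together to ubiquitinate the sliding clamp PCNA. *rhp18* (SPBC1734.06), the ubiquitin ligase, had 689.6, 1202 and 1498 at 36°C, against 2479.8, 2640.3 and 3130.0 at 25°C. It fell under all 3 scalings (log2 fold change -1.35, SE 0.30, limma adjusted p = 0.00764). *rhp6* (SPAC18B11.07c), the ubiquitin-conjugating enzyme, had 8323, 7311 and 7483 at 36°C, against 7012, 6919 and 7514 at 25°C. The groups overlap and the change was 0.11 (SE 0.11, limma adjusted p = 0.431), although it was called higher with centred arrays (0.87) and with quantile normalization (0.38).

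In nucleotide excision repair, 7 of 10 genes fell and 1 rose (51.9% and 12.1% of all features did), while 2 missed the threshold. The median was -0.85. With centred arrays 4 fell and 2 rose (34.5% and 39.4% of all features), with a median of -0.09. Quantile normalization gave 4 lower and 5 higher (33.9% and 30.3% of all features), with a median of 0.13. *rhp26* (SPCP25A2.02c), the homologue of human CSB that couples repair to transcription, had signals of 73.5, 49.5 and 69.7 at 36°C, against 733, 973 and 1012 at 25°C. The decrease was 14.2-fold (log2 fold change -3.83, SE 0.21, limma adjusted p = 3.15e-05), the next in size after that of *nse1*. *rhp14* (SPBC649.03), the XPA homologue that verifies the lesion, had 133, 82.9 and 86.0 at 36°C, against 649, 654 and 741 at 25°C (log2 fold change -2.79, SE 0.21, limma adjusted p = 7.76e-05). These probe sets showed no overlap between temperatures, and both were lower under all 3 scalings.

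The nucleases that cut on either side of a lesion also fell. *swi10* (SPBC4F6.15c), the ERCC1 homologue, had 825, 651 and 776 at 36°C, against 2217, 2113 and 2549 at 25°C (log2 fold change -1.61, SE 0.14, limma adjusted p = 0.000146). Its partner *rad16*, the XPF homologue, fell by 0.88 on the log2 scale (SE 0.15), but its change was -0.12 with centred arrays and 0.45, a call in the other direction, with quantile normalization. *rad13*, the XPG homologue, fell by 1.58 (SE 0.19), and by 0.82 with centred arrays, without passing the test under quantile normalization.

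The lesion-recognition genes differed from each other. *rhp42* (SPCC4G3.10c), an XPC homologue, had 1478, 1118 and 1591 at 36°C, against 459, 580.1 and 641 at 25°C. All 36°C arrays were above all 25°C arrays, the 2.49-fold increase was the largest among the 49 genes (log2 fold change 1.32, SE 0.19, limma adjusted p = 0.00136), and it held under all 3 scalings. *rhp41*, the other XPC homologue, was at -0.37 (SE 0.19, limma adjusted p = 0.135), with replicate 1 higher at 36°C and replicates 2 and 3 lower, and it was called higher with quantile normalization (0.68). *rhp23*, the partner of these XPC homologues, fell by 0.79 (SE 0.14), but was at -0.03 and without a call with centred arrays. *rhp16*, which acts in global genome repair, fell by 0.83 (SE 0.26, limma adjusted p = 0.0296), a call that held in 2 of the 6 fits (those without replicate 1 at 25°C or replicate 3 at 36°C), and it was at -0.07 with centred arrays and called higher, at 0.53, with quantile normalization. With the replicate block *rhp16* stayed lower (limma adjusted p = 0.00103). *rad15* (SPAC1D4.12), the XPD helicase of the transcription factor TFIIH, had 926, 1291 and 1678 at 36°C, against 975, 1504 and 1664 at 25°C. These signals overlap entirely, and the change was -0.09 (SE 0.29, limma adjusted p = 0.81), but it was called higher with centred arrays (0.67) and with quantile normalization (0.90).

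Of the 4 mismatch repair genes 3 fell (51.9% of all features did) and 1 did not pass the test, with a median of -1.45. With centred arrays and with quantile normalization 2 were still lower (34.5% and 33.9% of all features), and the medians were -0.69 and -0.25. *msh6* (SPCC285.16c), a MutS homologue that recognises mismatched bases, had 358, 549 and 659 at 36°C, against 1880.4, 2184 and 2401 at 25°C (log2 fold change -2.08, SE 0.25, limma adjusted p = 0.000498). *msh3* (SPAC8F11.03), another MutS homologue, had 567, 423 and 522 at 36°C, against 1251, 1945 and 2077 at 25°C (log2 fold change -1.78, SE 0.23, limma adjusted p = 0.000768). Each was lower under all 3 scalings, and the smallest changes, with quantile normalization, were -1.04 for *msh6* and -0.65 for *msh3*. *pms1*, the MutL homologue, fell by 1.13 (SE 0.19) with the deposited scaling. It passed neither with centred arrays (-0.37) nor with quantile normalization (0.15). *msh1* (SPAC13F5.01c), a MutS homologue, had 536, 523 and 564 at 36°C, against 569, 809.7 and 898 at 25°C. Every 36°C array lay below every 25°C array, yet the change did not pass the test (log2 fold change -0.46, SE 0.19, limma adjusted p = 0.0723), and with quantile normalization it was 0.94 and called higher. It passed as lower with the replicate block (limma adjusted p = 0.0404) and without replicate 1 at 25°C (0.00641). The same held when scaled to the spike-in controls (limma adjusted p = 0.0382) and with replicates 2 and 3 only (0.000618).

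None of the 3 listed end joining genes passed the test with the deposited scaling. Their median was -0.02 as deposited, 0.74 with centred arrays and 1.34 with quantile normalization. *xlf1*, an end joining gene among the other repair genes counted below, rose by 1.03 (SE 0.15, limma adjusted p = 0.00143). It was also higher with centred arrays (1.79) and with quantile normalization (2.27). *pol4*, an end joining polymerase of that list, was at -2.16 but below background on every array. *pku80* (SPBC543.03c), a subunit of the Ku complex that binds broken ends, had 731, 565 and 597 at 36°C, against 509, 699 and 725 at 25°C. Replicate 1 was higher at 36°C (log2 ratio 0.52) and replicates 2 and 3 were lower (-0.31 and -0.28), and the change was -0.02 (SE 0.19, limma adjusted p = 0.935). With replicates 2 and 3 only *pku80* was called lower, at -0.29 (limma adjusted p = 0.0372). *pku70*, the other Ku subunit, was at -0.42 (SE 0.39) and *lig4*, the ligase that seals the ends, at 0.10 (SE 0.22). With centred arrays *pku80* and *lig4* were called higher (39.4% of all features were). All 3 were called higher with quantile normalization (30.3% of all features), at 1.34, 1.08 and 1.55 for *pku80*, *pku70* and *lig4*. With the replicate block *pku70* was called lower (limma adjusted p = 0.0362).

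With the deposited scaling the median log2 fold change was less negative in brighter probe sets, among these genes and among all features alike. Features were split into 4 bins of equal size by their mean log2 signal. In the dimmest bin the 25 members had a median log2 fold change of -1.65, beside -1.45 for its 730 features. Of these members 20 fell, where 65.5% of the features did, and none rose, where 107 of the 730 features did. In the next bin the 16 members had a median of -0.73, beside -1.10 for all its features. Here 8 were lower, where 63.8% of the features were, and 4 were higher, where 81 of 729 features were. The brighter bins held 5 and 3 members with medians of -0.17 and -0.03, beside -0.59 and -0.09 for all features. Of these 8 members 1 fell (*rhp23*) and 1 rose (*nse5*), where 50.75% and 27.4% of the features of the 2 bins fell. In these bins 97 of 729 and 69 of 730 features rose. By the mean log2 signal most members were dim. That mean includes the 36°C arrays, so a gene that falls at 36°C is moved towards the dim bins by its own fall. *nse1*, in the dimmest bin, which ends at a signal of 662, had mean signals of 1219 at 25°C and 46.8 at 36°C. The link of dimness and decrease is thus partly built in, and the part of brightness in the changes was not tested.

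**Figure D4:**
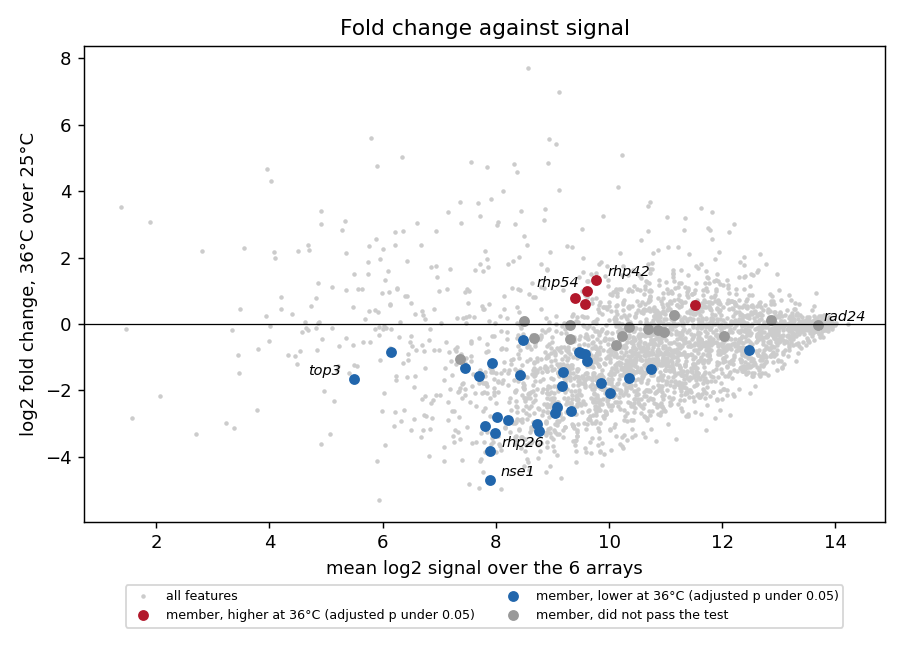
Log2 fold change, 36°C over 25°C, against the mean log2 signal over 6 arrays, for all 2918 features (small grey points) and the 49 members (red higher, blue lower, grey not passing the test). The 6 members with labels run from the dim *top3* to the bright *rad24*. The strongest decreases, *nse1* and *rhp26*, lie among the features dim by this mean, which their low 36°C signals pull down.

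Because the arrays differ in their overall level, each gene was followed through 3 scalings. The median of the 49 genes was -0.92 as deposited, -0.16 with centred arrays and 0.04 with quantile normalization, so the direction of the list as a whole depended on the scaling. The counts were 5 higher and 29 lower as deposited, 11 higher and 22 lower with centred arrays (39.4% and 34.5% of all features), and 18 higher and 19 lower with quantile normalization (30.3% and 33.9% of all features). Under all 3 scalings 17 genes fell (34.7%, against 28.4% of all features), namely *rad1*, *rad3*, *rad26*, *ctp1*, *srs2*, *rqh1*, *top3*, *smc5*, *smc6*, *nse1*, *nse6*, *rhp18*, *rhp26*, *rhp14*, *swi10*, *msh6* and *msh3*. Likewise, 5 genes rose under all 3 (10.2%, against 12.1% of all features), namely *rhp42*, *rhp54*, *rad9*, *hus1* and *nse5*. Quantile normalization turned 4 of the 29 lower genes higher (*nbs1*, *mus81*, *rhp16* and *rad16*) and left 6 without a call, whereas centring turned none of the 29 higher.

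**Figure D5:**
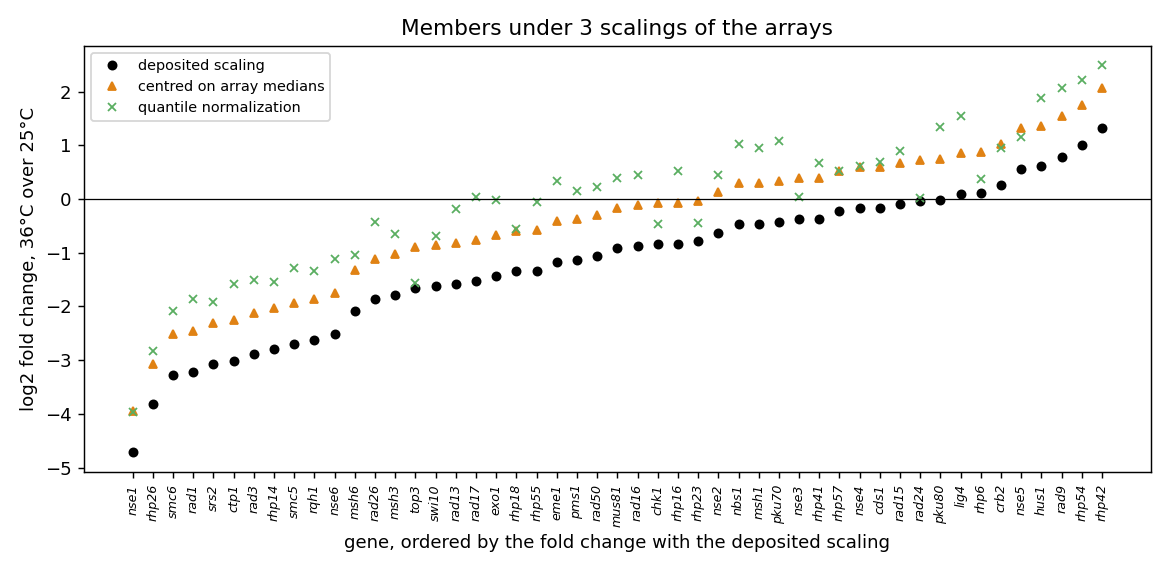
Log2 fold change, 36°C over 25°C, of each of the 49 genes under the deposited scaling (black circles), centring on array medians (orange triangles) and quantile normalization (green crosses), ordered by the deposited scaling. The ends keep their side of zero, from *nse1* to *rhp42*, and the middle genes cross it.

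Other genes of the same pathways were counted from a list of 82 symbols, of which 69 had a probe set. With the deposited scaling 45 fell (65.2%, against 51.9% of all features) and 9 rose (13.0%, against 12.1%), while 15 missed the threshold, and the median was -1.10. Centred arrays gave 31 lower and 21 higher (34.5% and 39.4% of all features), with a median of -0.34. Quantile normalization gave 25 lower and 25 higher (33.9% and 30.3% of all features), with a median of -0.17. *swi1*, a fork protection factor, had 65.4, 62.3 and 61.4 at 36°C, against 727, 926 and 1100.4 at 25°C (log2 fold change -3.84, SE 0.17, limma adjusted p = 2.16e-05). *eso1*, a translesion polymerase, had 100.3, 185 and 163 at 36°C, against 1354, 1979 and 2334 at 25°C (log2 fold change -3.67, SE 0.30, limma adjusted p = 0.000116), and *mrc1*, the mediator of the replication checkpoint, was at -3.63 (SE 0.30). At the other end *mag2*, of the family of DNA glycosylases that remove alkylated bases, had 922, 629 and 663 at 36°C, against 58.4, 65.6 and 50.1 at 25°C (log2 fold change 3.66, SE 0.19, limma adjusted p = 2.85e-05). *rlp1*, a recombination gene, rose by 2.56 (SE 0.14) and *rti1*, a relative of Rad52, by 1.90 (SE 0.17).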

How the data were processed

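RNA of 3 samples at 36°C and 3 at 25°C was measured, each on 1 GeneChip Yeast Genome array. Per the study's methods, arrays were scanned on a GeneChip Scanner and analysed in GCOS with default settings and global scaling. The deposited values are linear signal intensities, 1 per probe set and array; the scaling target is not given in the sources used here, and no detection calls were used. The platform annotation names 1 *S. pombe* gene for 2917 of 10928 probe sets and several for 20, and 5177 are unnamed. Probe sets of 15 genes were averaged, giving 2918 features. Of the 50 listed genes 1 is not reported here. *rhp54*, *rhp55* and *rhp57* were given their current symbols from RefSeq.

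The test was a moderated linear model on log2 intensities (limma 3.58.1, R 4.3.3), two-sided and without a block, with Benjamini-Hochberg adjustment over 2918 features and a threshold of 0.05. Python 3.11.15, pandas 2.3.3, numpy 2.4.6 and matplotlib 3.10.9 were used for tables and figures. The labels' descriptions have another form for replicate 1 than for replicates 2 and 3, and say nothing of batches or cultures. Where samples shared a culture the p-values measure only the spread between these samples, and 3 arrays a temperature limit the precision. Background, the 90th percentile of *S. cerevisiae* probe sets, was 14.0 to 21.3. After subtraction of each temperature's mean, arrays of the same replicate number correlated at 0.54, 0.45 and 0.43 (2861 features above background), all over 0.1. These values mainly set replicate 1 apart from replicates 2 and 3, so pairing by replicate number is not established. A fit with a replicate block was run as an alternative, and the errors and p-values given are from the fit without it. Array 2 at 25°C correlated slightly more with array 3 at 36°C (0.48), and array 1 at either temperature correlated at -0.55 to -0.36 with arrays 2 and 3 at the other.

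The members, role groups and further repair genes were chosen with earlier results of these data known. Signals of every array are given for the 3 most changed genes that passed in each role group (2 in groups of 4 or fewer), each gene that rose and the gene changed least. Alternatives were 3 other scalings, 32 added before log2, dim features or lower-specificity probe sets left out, a trended robust variance, the block, replicates 2 and 3 only, and each array left out. A search of promoters for motifs was not run, and no sequences are shown.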

Additional observations from a re-analysis of the deposited data

How the results depend on the processing

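Counts and medians depended on the scaling. With centred arrays 11 members rose and the median of the members was -0.16 and that of all features 0.10, with 1151 features higher and 1007 lower. With quantile normalization 18 members rose and 19 fell, the medians were 0.04 for members and -0.02 for all features, and 883 features were higher and 990 lower. Among the other repair genes 21 rose with centred arrays, and 25 rose and 25 fell with quantile normalization. Excision repair had 4 lower genes with centred arrays and 4 with quantile normalization, which also left 3 lower among the enzymes that unwind or cut joined DNA and 1 in recombination. Adding 32 to each signal gave a median over all features of -0.63.

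Of the named genes, *msh1* turned to 0.30 and 0.94, *nse4* to 0.59 and 0.62, *pku80* to 0.74 and 1.34, *rad15* to 0.67 and 0.90, *rad24* to 0.73 and 0.01 and *rhp57* to 0.53 and 0.53 with centred arrays and with quantile normalization, and *mus81* turned to 0.40 with quantile normalization. Of these genes *mus81* had passed the test as lower with the deposited scaling. When turned, *pku80* and *rad15* passed as higher under both other scalings, *msh1* and *mus81* with quantile normalization and *rad24* with centred arrays. Leaving out each array in turn gave -0.18 to 0.07 for *pku80* and -0.33 to 0.13 for *rad15*, 26 to 31 lower members, and 3 to 5 higher members, with 3 without replicate 2 or replicate 3 at 36°C. Over all features it gave 1306 to 1550 lower and 275 to 455 higher. The median was -1.06 to -0.84 for members and -0.77 to -0.53 for all features. With replicates 2 and 3 only, 37 members fell and 5 rose, beside 1755 and 484 of all features. The medians were -1.02 for members and -0.64 for all features, and 5 recombination genes and 1 end joining gene (*pku80*) fell. With the replicate block 32 members fell and 5 rose, 1 end joining gene fell, 1719 features fell and 466 rose, and no other member's call changed besides *rad50*, *msh1* and *pku70*. Scaling to the spike-in controls gave 31 lower and 5 higher members, beside 1556 lower and 365 higher features. The cause of these shifts was not tested. Of 30 named genes, all 30 kept direction and call with 32 added, with dim features left out, with lower-specificity probe sets left out and with a trended robust variance, but with 32 added *nse1* was at -3.99 and *top3* at -0.97. Background was 14.0 to 21.3, and *top3*, at 24.1 to 27.3 at 36°C, was the member nearest to it. The planned search of promoters for motifs was not run.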

Other observations

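Some genes of the 82 further symbols showed values of a kind not yet described, and they were chosen after their values were seen. Among the genes for the supply of deoxynucleotides, *spd1*, which encodes an inhibitor of ribonucleotide reductase, had signals of 11950.2, 11816 and 11279 at 36°C, against 5303, 5917 and 6073 at 25°C (log2 fold change 1.02, SE 0.11, limma adjusted p = 0.00031). *cdc22*, the large subunit of the reductase, had 2639.6, 3036 and 4365 at 36°C, against 8038, 9981 and 9894 at 25°C (log2 fold change -1.50, SE 0.21, limma adjusted p = 0.00117). *suc22*, the small subunit, had 11107, 11987 and 11625 at 36°C, against 11559.7, 11446 and 11775 at 25°C, which overlap (log2 fold change 0.00, SE 0.10, limma adjusted p = 0.98).

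*swi3*, which forms the fork protection complex with Swi1, had 154, 116 and 148 at 36°C, against 1087, 973 and 1501 at 25°C (log2 fold change -3.08, SE 0.21, limma adjusted p = 5.56e-05), so both genes of that complex fell, as they did under all 3 scalings. The genes of the RPA complex, which coats single-stranded DNA, all fell with the deposited scaling, at log2 fold changes of -1.90 for *ssb1* (SE 0.14), -2.72 for *ssb2* (SE 0.12) and -0.57 for *ssb3* (SE 0.13), but *ssb3* was at 0.19 with centred arrays and rose by 0.95 with quantile normalization. *rad22*, which encodes the Rad52 homologue, was above background on 1 of 3 arrays at 36°C, at 2.3, 20.2 and 14.0, against 115, 95.3 and 107 at 25°C.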
